A study of Mus musculus with 18 samples.

Results

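Neutrophils are short-lived phagocytes that leave the blood for sites of infection or damage. They follow small secreted proteins, the CXC chemokines Cxcl1, Cxcl2, Cxcl3 and Cxcl5, which all bind the receptor Cxcr2 on the neutrophil surface. In the gut, epithelial cells, fibroblasts and macrophages make these ligands in response to interleukin 1, tumour necrosis factor and bacterial products. Ccl20 is a related chemokine of the epithelium that attracts lymphocytes and dendritic cells through its own receptor, Ccr6. S100a8 and S100a9 are the subunits of calprotectin, a metal-binding protein that fills the neutrophil cytoplasm and is measured in stool as a sign of gut inflammation.

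These 8 genes were chosen by name, for their measured log2 ratios in the same arrays described here, out of 26073 genes. Their own values are therefore a description, given with errors and without p-values. Counts of these genes past a threshold, in any comparison below, are likewise no evidence about them. The array held 9 probes for them, 2 of which read Cxcr2, and all 8 genes passed the filter on dim probes. A probe passed if its sample signal was well above background on all 3 arrays of any 1 group, so a gene could pass through the group in which it was bright.

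The tissue came from male C57BL/6 mice on 1 of 2 diets, control or supplemented with the herb St. John's wort (SJW). Mice had received either saline or azoxymethane (AOM), a carcinogen that gives rodents intestinal tumours. The series design calls the 3 arrays of a group biological replicates, and there were 6 groups: control saline, SJW saline, control AOM and SJW AOM, all of non-tumour areas, and control tumour and SJW tumour, both from AOM-treated mice. The labels used here do not say whether a tumour and a non-tumour sample came from 1 animal, nor the age of the mice or the dose of either agent. Each array set sample RNA in red (Cy5) against a commercial pool of RNA of Swiss Webster mouse organs and embryos in green (Cy3), spleen among them, without a dye swap. A value is the log2 of red over green, so 0 means as much transcript as in the pool, and levels are compared only within a probe.

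The labels call the tissue small intestine and the extraction protocol names liver. The mean log2 ratio of 9 colon markers ranged from 3.61 to 5.56 outside tumours and from 0.274 to 1.83 in them. That of 12 small intestine markers ranged from 0.319 to 1.31 and from -0.274 to -0.0961, and that of 6 liver markers stayed between -1.72 and -0.678 on all 18 arrays. That of 5 pancreatic acinar markers was 4.13 in SJW AOM replicate 3, and 1.17 and 2.09 in SJW saline replicates 1 and 2. On every other array it lay between -2.13 and -0.119. The part of this in comparisons that use those arrays was not tested. The median red signal over background was 2.08 to 5.92 on the 12 non-tumour arrays and 5.24 to 12.2 on the 6 tumour arrays. The tumour arrays lay on slides of their own (slides 4 and 5, scan day 2, against slides 1, 2 and 3 on scan day 1), so tissue and slide cannot be told apart in any comparison of tumour with non-tumour tissue. In bulk tissue, fewer cells of a type and less RNA per cell cannot be told apart either.

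The promoters of the chemokine genes are shown first because 4 of these genes carry a match to the kappaB motif, the DNA element read by NF-kB transcription factors, close to their start. The 120 bases before the annotated start were taken from RefSeq on build GRCm38.p6, whose table held 7 of the 8 genes. Capitals mark the kappaB match, and each sequence is written 5′ to 3′ on the strand of its gene, here the plus strand.
Cxcl1, chr5:90891125-90891244: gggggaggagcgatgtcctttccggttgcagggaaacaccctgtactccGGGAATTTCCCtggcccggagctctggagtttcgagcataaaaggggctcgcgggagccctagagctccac
Cxcl2, chr5:90903779-90903898: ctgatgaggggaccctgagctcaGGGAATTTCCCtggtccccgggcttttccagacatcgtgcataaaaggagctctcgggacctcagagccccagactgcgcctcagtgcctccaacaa
Cxcl3, chr5:90785981-90786100: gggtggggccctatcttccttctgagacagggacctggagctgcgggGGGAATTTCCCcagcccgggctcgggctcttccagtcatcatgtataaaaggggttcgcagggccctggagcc
Ccl20, chr1:83116646-83116765: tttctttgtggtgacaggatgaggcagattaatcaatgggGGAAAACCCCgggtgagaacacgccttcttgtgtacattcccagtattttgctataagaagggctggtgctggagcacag

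Cxcl1, Cxcl2 and Cxcl3 carried the identical run GGGAATTTCCC. The run holds 2 overlapping matches to the 10-base motif, GGGAATTTCC and GGAATTTCCC. It began 71 bases before the start of Cxcl1, 97 before that of Cxcl2 and 73 before that of Cxcl3. Ccl20 had a single match, GGAAAACCCC, which began 80 bases before its start. In the 250 bases before the start, searched on both strands, 3.9% of 32851 RefSeq promoters held a kappaB match. The same window of S100a8, S100a9 and Cxcr2 held none.

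A C/EBP motif (TTNNGNAA, both strands), named for a family of transcription factors of myeloid cells, was found in 36.8% of all promoters. It was found once in Cxcl2, 236 bases before the start, once in S100a8, 117 bases before, and 2 times in S100a9. An AP-1 motif (TGANTCA, both strands) was in 6.75% of promoters and in none of these 7. A TATA box (TATAAA, gene strand) was in 7.59%, and in Cxcl3 and S100a8 it began 30 bases before the start. These matches are letters in a window and carry no measurement of binding.

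By group mean, each of the 4 CXC ligands was highest in the control tumours and next highest in the SJW tumours. Cxcl1, first described as a growth-regulated gene of fibroblasts, was well above background on all 18 arrays. Its log2 ratios in control saline tissue were 0.46, 0.05 and 0.23, and in SJW saline tissue 0.74, 0.84 and 0.13. After AOM they were 0.50, 1.35 and 0.80 on the control diet and 0.78, 0.41 and 0.26 on SJW. The tumours read 2.07, 2.03 and 2.58 on the control diet and 1.30, 1.52 and 1.90 on SJW. All 3 control tumours were above all 3 SJW tumours, and the lowest SJW tumour was just below the highest control AOM sample. The tumour difference was 1.34 ± 0.246 (SE, 2.54-fold) on the control diet and 1.09 ± 0.246 (2.13-fold) on SJW, both past the threshold of the fit across all genes, a Benjamini-Hochberg adjusted p of 0.05 by limma. With the scanner software's own log ratio the SJW difference no longer passed.

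Cxcl2, a chemokine of macrophages and neutrophils themselves, was seen only in tumours. Its red signal was not well above background on any of the 12 non-tumour arrays, nor in SJW tumour replicate 2. There the log2 ratios lay between -0.43 and 0.26 and have no order. The control tumours read 1.81, 0.98 and 1.13, and the other 2 SJW tumours 0.10 and 1.13. SJW tumour replicate 3 thus equalled control tumour replicate 3, while SJW tumour replicate 1 was near the non-tumour arrays. As a bound in red signal, Cxcl2 was at least 2.46-fold higher in tumours on the control diet, where all 3 arrays measured it. On SJW, where 2 of 3 did, the same calculation gave 1.53-fold, which is no firm bound because its mean includes replicate 2. The SJW value also rests on SJW tumour replicate 3, without which the fitted difference was 0.18. A bound sets the mean red signal of the tumours against the lowest signal among probes well above background on each non-tumour array, or the probe's own if higher, in log2 red signals after loess and scaling between arrays, and is open to dye bias without swaps. The fitted differences of the log2 ratios were 1.26 ± 0.25 (2.4-fold), which passed, and 0.50 ± 0.25 (1.41-fold), which did not. Both are smaller than the values in red signal, which hold on that scale only. With the scanner's log ratio they were 2.85 and 1.39. With median centring in place of loess the control difference no longer passed.

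Cxcl3, the third of the closely related ligands, had the same pattern with a wider gap between diets. It was not well above background on any non-tumour array, where ratios lay between -0.17 and 0.28. The control tumours read 2.64, 2.04 and 2.30, and the SJW tumours 0.98, 0.62 and 1.38. No SJW tumour reached the lowest control tumour, and every tumour exceeded every non-tumour array. Cxcl3 was at least 3.63-fold higher in tumours on the control diet and at least 1.73-fold higher on SJW. The fitted differences, 2.12 ± 0.184 and 0.80 ± 0.184, both passed, while the scanner's log ratio gave 4.23 and 2.09. With median centring the SJW difference was 0.39 and with the red channel alone it also no longer passed. The green signal of Cxcl3 was well above background on 1 of 18 arrays. The tumour arrays were the brighter ones, and the part of array brightness in the absence of Cxcl2 and Cxcl3 from non-tumour tissue was not tested.

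Cxcl5, which epithelial cells make and which also draws neutrophils through Cxcr2, had the widest range of the ligands. Saline tissue read -0.40, -0.11 and -0.84 on the control diet and -0.71, 0.02 and -1.47 on SJW, with red well above background on 1 of 3 arrays in each group. After AOM the values were 0.28, 2.31 and 2.32 on the control diet, all well above background, and -0.18, 0.70 and 0.46 on SJW, 2 of them well above. The tumours read 4.41, 4.24 and 3.65 on the control diet and 1.45, 2.38 and 3.57 on SJW. The group means followed the order control tumour (4.10), SJW tumour (2.47), control AOM (1.64), SJW AOM (0.33), control saline (-0.45) and SJW saline (-0.72). Of these neighbours only the 2 tumour groups did not overlap, and they did so by less than 0.1 between control replicate 3 and SJW replicate 3. The tumour differences were 2.46 ± 0.556 (5.49-fold) and 2.14 ± 0.556 (4.41-fold), and both passed. Without SJW tumour replicate 3 the SJW difference did not pass.

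**Figure D1:**
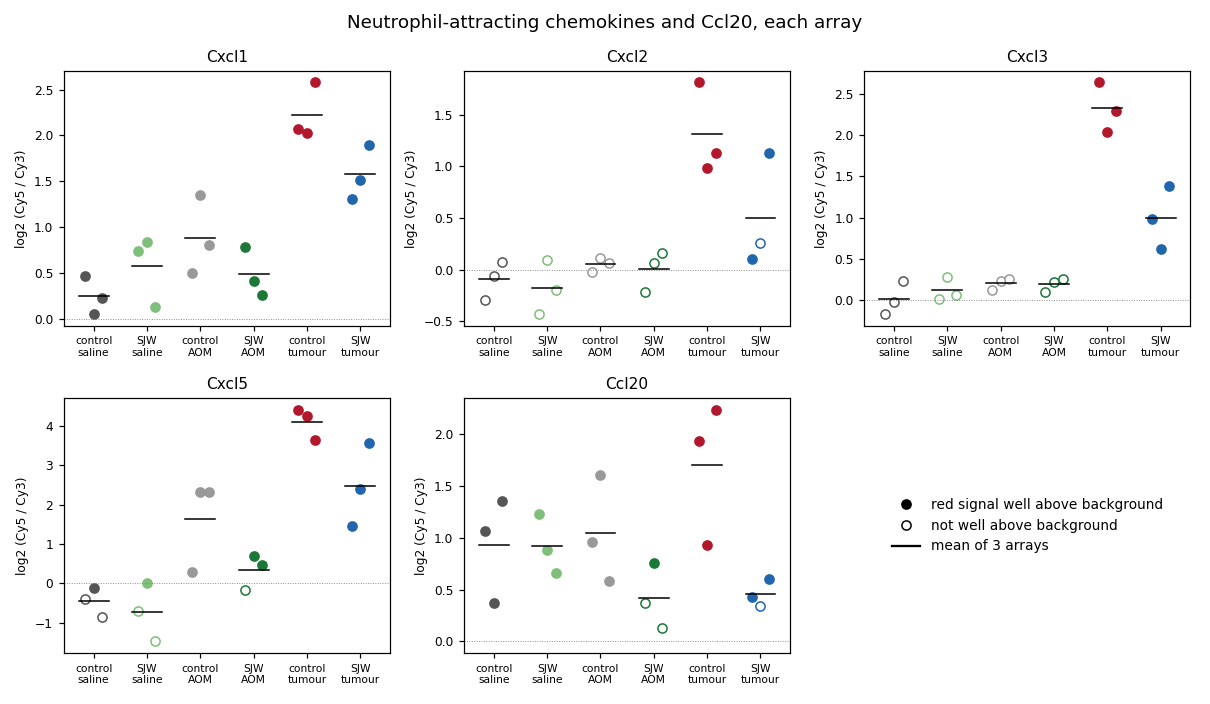
Log2 of red (Cy5) over green (Cy3) for the 4 CXC ligands and Ccl20, 1 point per array and 3 arrays in each of 6 groups, with the group mean as a line. Filled points mark arrays with red signal well above background; Cxcl2 and Cxcl3 have none outside the tumours, and each panel has its own vertical scale.

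Ccl20 did not follow the CXC ligands. In non-tumour tissue it lay between 0.13 and 1.60. The control tumours read 1.93, 0.93 and 2.24 and the SJW tumours 0.42, 0.34 and 0.61. The control tumours overlapped their non-tumour tissue, with a difference of 0.65 ± 0.329 that did not pass, though it reached 1.04 and passed without control tumour replicate 2. The SJW tumours did not differ from theirs beyond the spread (0.04 ± 0.329). With the scanner's log ratio these differences were 0.06 and -1.55, and the green signal of Ccl20 was not well above background on any array. Its receptor gene Ccr6 fell in both tumour comparisons, by 0.91 ± 0.274 (limma, adjusted p = 0.0191) and by 0.79 ± 0.274 (adjusted p = 0.0472). Neither change of Ccr6 passed with the scanner's log ratio or with median centring, and when each array was left out it passed in 3 of 6 fits on the control diet and 1 of 6 on SJW.

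The 2 probes of Cxcr2 disagreed. The brighter one, A_51_P148602, which stands for the gene in the fit, read 0.98, 0.75 and 1.30 in the control tumours and 0.41, 1.08 and 0.74 in the SJW tumours, within its non-tumour range of 0.52 to 1.15 except for 2 arrays. Its tumour differences were 0.10 ± 0.195 and -0.06 ± 0.195. The other, A_52_P559975, read 0.89, 0.36 and 0.55 in the control tumours and 0.39, 0.70 and 1.03 in the SJW tumours, against -0.22 to 0.02 in AOM tissue of both diets. In saline tissue this probe read -0.01 to 0.50, which overlapped the tumours of each diet. Its differences of 0.73 ± 0.185 and 0.82 ± 0.185 passed in both diets. The labels and files used here do not say which part of the transcript either probe reads, and no direction is given for the gene. Cxcr1, the other receptor of this kind, was not among the genes tested.

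S100a8 and S100a9 had the largest differences between arrays of one group. S100a8 read -2.12, -0.86 and -2.59 in control saline tissue and -2.58, -2.43 and -2.91 in SJW saline tissue. Red was well above background on 1 of 3 arrays in each saline group. After AOM S100a8 read -1.32, -1.07 and -0.73 on the control diet, all well above background, and -2.40, -2.16 and -1.19 on SJW, 2 of them well above. The tumours read 2.10, 1.81 and -0.21 on the control diet and -1.82, -0.97 and 1.01 on SJW. Replicate 3 was thus the lowest of the control tumours and the highest of the SJW tumours, and the 2 tumour groups overlapped. The tumour difference was 2.28 ± 0.66 (4.84-fold) on the control diet, which passed, and 1.32 ± 0.66 on SJW, which did not. Without control tumour replicate 1 or 2, or without control AOM replicate 1, the control difference no longer passed. In SJW tumour replicate 2 the local red background of the S100a8 spot was 605.5, and with the scanner's log ratio the SJW difference was 3.21 and passed.

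S100a9 went with S100a8 array by array, with a Pearson correlation of 0.971 over the 18 arrays and 0.931 after each group's mean was removed. Saline tissue read -2.66, -1.48 and -2.79 on the control diet and -2.40, -2.69 and -2.62 on SJW, and AOM tissue -1.46, -1.51 and -0.43 and -2.54, -1.87 and -0.74. The tumours read 2.10, 1.66 and -0.14 on the control diet and -1.33, -1.64 and 1.35 on SJW, again with replicate 3 out of line in both. The tumour difference was 2.34 ± 0.71 (5.06-fold) on the control diet and passed, and 1.18 ± 0.71 on SJW and did not. Without control tumour replicate 1 or 2, or control AOM replicate 1 or 2, the control difference no longer passed. Without SJW tumour replicate 3 the SJW differences were 0.52 for S100a8 and 0.23 for S100a9.

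**Figure D2:**
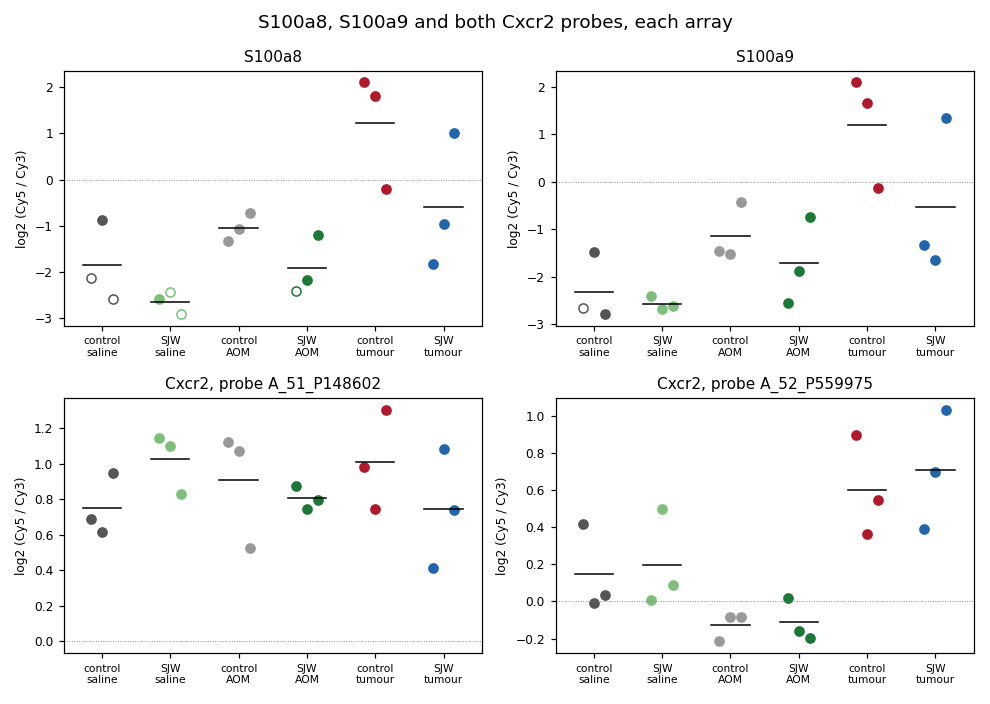
Log2 of red over green for S100a8, S100a9 and each of the 2 Cxcr2 probes, 1 point per array with the mean of 3 as a line; open points were not well above background in red. Both S100 genes show replicate 3 low among the control tumours and high among the SJW tumours, and the Cxcr2 probes differ in whether the tumours stand above AOM tissue.

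On the control diet 6 of the 8 genes passed in tumours, all higher: Cxcl1, Cxcl2, Cxcl3, Cxcl5, S100a8 and S100a9. Over all genes 12.7% passed as higher and 19.3% as lower, and with the scanner's log ratio 4848 genes were higher and 3246 lower in place of 3313 and 5020, with a median of all genes of 0.146 in place of -0.05. With median centring the numbers were 3777 and 1854. For these 6 genes all 3 tumours also lay above all 3 AOM samples, which was so for 18% of all genes. On SJW 3 passed, Cxcl1, Cxcl3 and Cxcl5, against 9.18% of all genes as higher and 15.4% as lower, and all 3 arrays lay above for the same 3 genes, against 17.7%. With the scanner's log ratio 3394 genes were higher and 3038 lower on SJW in place of 2394 and 4022, and with median centring 2703 and 1282. The genes were chosen on these values, so these counts are no evidence about them. The median difference of the 8 genes was 1.73 on the control diet and 0.95 on SJW, with medians of all genes of -0.05 and -0.06.

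The tumours of the 2 diets were then set side by side. All 8 genes had a negative difference (SJW minus control), and none passed in limma, nor did any of the 26073 genes (0%). When each array was left out, 0 to 6 of all genes were lower on SJW and 0 to 4 higher. At an unadjusted p under 0.05 there were 7 of the 8 genes and 1565 of all genes (6%). The genes were chosen on these values, so this count and the next are no evidence about them. In 4 genes all 3 SJW tumours lay below all 3 control tumours, against 5.07% of all genes. These were Cxcl1 at -0.65 ± 0.246, Cxcl3 at -1.33 ± 0.184, Cxcl5 at -1.63 ± 0.556 and Ccl20 at -1.24 ± 0.329. Cxcl2 differed by -0.81 ± 0.25, S100a8 by -1.83 ± 0.66 and S100a9 by -1.74 ± 0.71, all with overlapping groups. The errors use 1 spread per gene shared by all 6 groups. In the same order, the replicate SD was 0.503, 1.36 and 1.43 between tumours, against 0.228, 0.654 and 0.521 between saline samples. For Cxcl3 it was 0.346 against 0.176. For these genes the errors, and the unadjusted p-values that use them, thus understate the spread between tumours. With the red channel alone the difference of Cxcl1 was -0.13.

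Within slides the genes parted. On slide 4, with 2 tumours of each diet, the difference was -3.35 for S100a8, -3.36 for S100a9, -2.40 for Cxcl5, -1.54 for Cxcl3, -1.22 for Cxcl2, -1.05 for Ccl20 and -0.64 for Cxcl1. On slide 5, with replicate 3 of each diet, it was 1.22 for S100a8 and 1.49 for S100a9, the opposite direction, and near 0 for Cxcl2 (0.0007) and Cxcl5 (-0.08). Cxcl3 (-0.92), Ccl20 (-1.63) and Cxcl1 (-0.68) were lower on SJW on both slides. Control tumour replicate 3 also had the highest red signal over background of all arrays, 12.2.

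The test of whether the tumour change itself differed between the diets passed for none of the 8 genes and none of all genes (0%) in limma, with 2 of the 8 and 1079 of all genes (4.14%) at an unadjusted p under 0.05. Cxcl3 had the largest such difference relative to its error, -1.32 ± 0.26, followed by Cxcl2 at -0.76 ± 0.354. For Cxcl1 and Cxcl5 it was -0.25 ± 0.348 and -0.32 ± 0.786. In AOM tissue, SJW minus control was -0.40 ± 0.246 for Cxcl1 and -1.31 ± 0.556 for Cxcl5, in groups that overlapped.

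**Figure D3:**
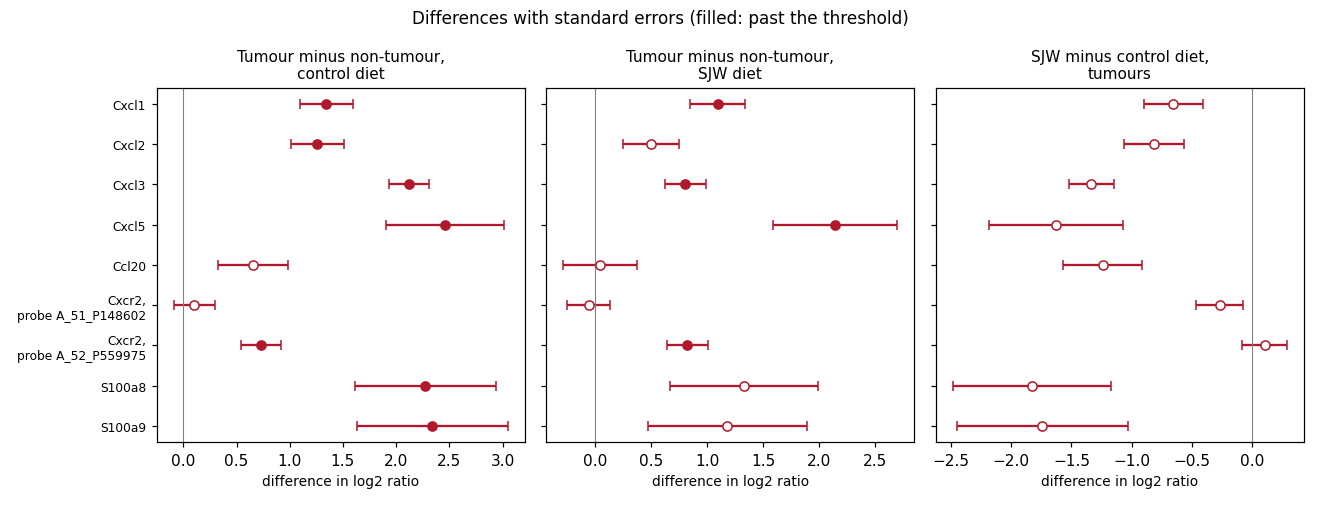
Differences in log2 ratio with standard errors from the fit of all 18 arrays, 3 arrays a group: tumour minus non-tumour tissue on the control diet, the same on SJW, and SJW minus control in tumours. Filled points passed the threshold; 6 genes did so on the control diet, 3 on SJW and none between the tumours of the diets, and the second Cxcr2 probe is drawn beside the one used in the fit.

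In non-tumour tissue AOM was set against saline in each diet. None of the 8 genes passed in limma on either diet. On the control diet all 8 differences were positive, with a median of 0.42, and 0.456% of all genes passed as higher. There 2 of the 8 genes, Cxcl1 and Cxcl5, reached an unadjusted p under 0.05, against 13.6% of all genes, and for the same 2 all AOM arrays lay above all saline arrays, against 9.45%. Cxcl5 differed by 2.09 ± 0.556 (4.26-fold, with saline tissue above background on 1 of 3 arrays) and Cxcl1 by 0.64 ± 0.246. Within slides 1, 2 and 3, with 1 array of each group, Cxcl5 differed by 0.69, 2.42 and 3.16 and Cxcl1 by 0.04, 1.30 and 0.57. S100a8 and S100a9 differed by 0.82 ± 0.66 and 1.18 ± 0.71, with overlap. Cell markers differed between AOM and saline tissue too. The median difference on the control diet was 2.32 for 7 smooth muscle genes, 1.15 for 6 fibroblast genes and 0.51 for 9 macrophage and monocyte genes. On SJW these medians were 1.90, 1.55 and 0.89. For 8 epithelial genes they were 0.07 and -0.13. None of these markers passed on the control diet, and their part in the values of the 8 genes was not tested.

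On SJW the median difference of the 8 genes was 0.13. Cxcl5 differed by 1.05 ± 0.556 with overlap and S100a8 by 0.72 ± 0.66 without. The gap of S100a8 lay between arrays not well above background, at -2.40 in SJW AOM and -2.43 in SJW saline tissue, and sets no order. Of the 8 differences 3 were negative, that of Ccl20 among them (-0.51 ± 0.329). Over all genes 0.656% passed as higher, 13.1% had all AOM arrays above, and 19.3% reached an unadjusted p under 0.05, as 0 of the 8 genes did. The difference between the diets in the AOM change was -1.04 ± 0.786 for Cxcl5 and -0.72 ± 0.348 for Cxcl1, and passed for no gene of 26073 (0%, with 9.34% of all genes and 0 of the 8 at an unadjusted p under 0.05). The AOM comparison shares its AOM arrays with the tumour comparison of the same diet.

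The diets were also compared in non-tumour tissue. After saline none of the 8 genes passed in limma and none of all genes did (0%). With slide as a fixed block 69 of all genes were higher and 2 lower on SJW, without control saline replicate 3 there were 274 and 17, and without SJW saline replicate 1 there were 199 and 5, none of them among the 8. Without a block and with all arrays, 0 of the 8 and 10.7% of all genes had an unadjusted p under 0.05. The 8 differences ran from -0.78 ± 0.66 for S100a8 to 0.32 ± 0.246 for Cxcl1. After AOM all 8 were negative, from -1.31 ± 0.556 for Cxcl5 to -0.02 ± 0.184 for Cxcl3, and none passed, again with none of all genes (0%). Cxcl5 alone of the 8 reached an unadjusted p under 0.05 there, against 3.18% of all genes.

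Other genes of neutrophils, not among the 8, were tested in the same fit. This list was also drawn up with earlier results of these data known and is no independent check. Of 37 such genes 14 rose and 2 fell in tumours on the control diet, with a median difference of 0.39, and 5 rose and 2 fell on SJW, with a median of 0.06. The rising genes were 37.8% of the list against 12.7% of all genes on the control diet, and 13.5% against 9.18% on SJW. Lcn2, an iron-trapping protein of neutrophil granules and of inflamed epithelium, rose by 3.21 ± 0.636 (adjusted p = 0.00139) and by 2.04 ± 0.636 on SJW (adjusted p = 0.0284). Mmp9, a gelatinase that neutrophils and macrophages release, rose by 2.37 ± 0.307 (adjusted p = 4.79e-05) and by 3.00 ± 0.307 (adjusted p = 9.16e-06). C5ar1, the receptor for complement C5a, rose by 1.22 ± 0.118 (adjusted p = 3.83e-06) and by 0.63 ± 0.118 (adjusted p = 0.00121). Padi4, the enzyme that converts histone arginines to citrulline, rose by 1.69 ± 0.511 (adjusted p = 0.0195, lost without control AOM replicate 1 or 3 or control tumour replicate 1 or 2) and by 2.30 ± 0.511 (adjusted p = 0.00418).

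Clec4d, a lectin receptor of myeloid cells, rose by 1.34 ± 0.279 on the control diet (adjusted p = 0.00202) and was at least 1.92-fold higher on SJW (adjusted p = 0.0105), where no non-tumour array was above background. The call for Clec4d on SJW was lost without SJW tumour replicate 3 and with median centring. That for Lcn2 on SJW was lost without SJW tumour replicate 3 or SJW AOM replicate 1 or 2. Without control tumour replicate 1 the 14 rising genes became 8, and without SJW tumour replicate 3 the 5 became 3.

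Of these 37 genes, 8 mark the neutrophil more strictly, and 2 of the 8 rose on the control diet (25%, against 12.7% of all genes). Csf3r, the receptor for the granulocyte growth factor, rose by 0.89 ± 0.214 (adjusted p = 0.00532) and Retnlg by 1.61 ± 0.511 (adjusted p = 0.0253). On SJW none passed (0%, against 9.18% of all genes as higher). The groups of Retnlg overlapped, and its call was lost without any 1 of control AOM replicates 1 and 2 and control tumour replicates 1 and 2, with values from 0.99 to 2.44 when each array was left out. The granule genes Mpo, Camp, Ngp and Ltf did not pass on either diet. None of the 8 was absent: Mpo, Camp, Ngp, Ltf, Retnlg and Cd177 were well above background on all 18 arrays, Csf3r on 13 and Elane on 10. Their mean log2 ratio was 0.00483 to 0.532 in the control tumours, -0.218 to 0.264 in the SJW tumours and -0.174 to 0.235 in non-tumour tissue. The pool contained spleen, and the level of these genes in it was not measured apart.

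**Figure D4:**
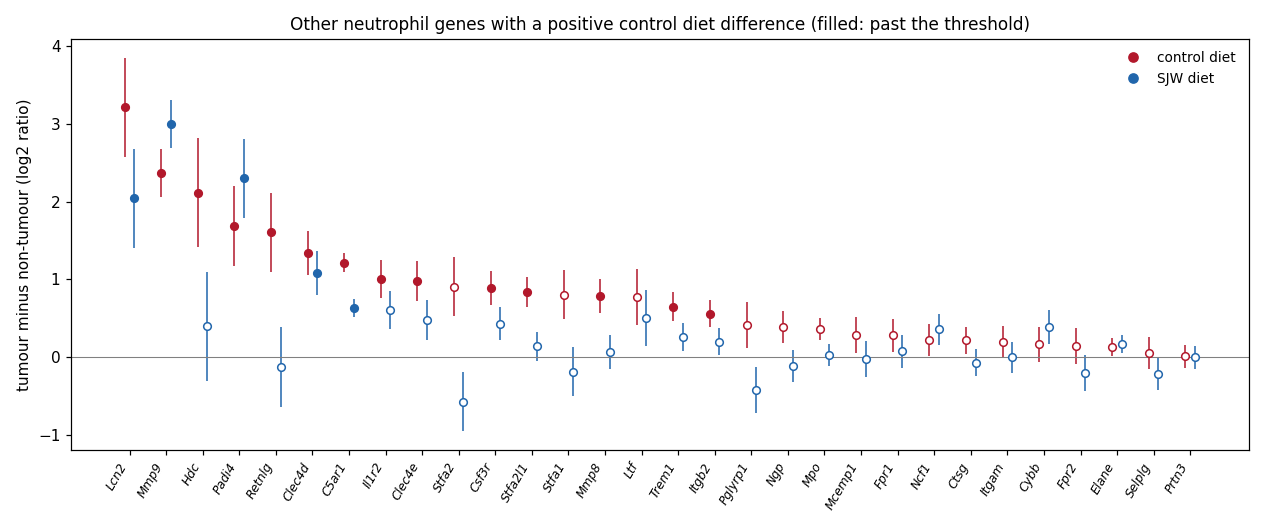
Tumour minus non-tumour differences in log2 ratio with standard errors for the 30 of 37 other neutrophil genes whose control diet difference was above 0, in order of that difference, with 3 arrays a group. Filled points passed the threshold, 14 on the control diet and 5 on SJW, all of them higher in tumours.

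Markers of other cells moved in the same comparisons, and their part in the values above was not tested. Over all genes 12.7% passed as higher and 19.3% as lower on the control diet, and 9.18% and 15.4% on SJW. Mast cell proteases and receptors rose in 6 of 8 on the control diet and in 4 of 8 on SJW, where 1 fell, with mean levels of 2.05 to 3.47 in control tumours against 0.782 to 2.42 in control AOM tissue. Epithelial genes fell in 8 of 8 and 7 of 8, with mean levels of 2.35 to 3.32 in tumours against 3.71 to 4.30 in non-tumour tissue. Macrophage and monocyte genes rose in 2 and fell in 1 of 9 on each diet. Their mean level was 0.379 to 0.704 in tumours and -0.177 to 0.676 in AOM tissue. Fibroblast genes rose in 4 and fell in 1 of 6 on the control diet and rose in 2 of 6 on SJW, with mean levels of -0.614 to -0.512 in control tumours and -1.26 to -0.937 in control AOM tissue, and of -0.394 to 0.233 and -1.30 to 0.0961 on SJW. Smooth muscle genes fell in 6 of 7 and 5 of 7, with mean levels of -1.31 to -0.6 in tumours and 0.303 to 2.57 in AOM tissue. B cell genes fell in 3 of 5 on each diet, with mean levels of -0.541 to 1.03 in tumours and 1.31 to 2.60 in AOM tissue.

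The next list held cytokines taken to act upstream of these chemokines or of the making of granulocytes, so not all induce the CXC ligands. Of 10 such genes 4 rose and none fell on the control diet (40% higher, against 12.7% of all genes). Il1b rose by 1.94 ± 0.353 (adjusted p = 0.000742), Tnf by 1.01 ± 0.287 (adjusted p = 0.0139, lost without control AOM replicate 1 or control tumour replicate 3) and Csf1, the macrophage growth factor, by 0.89 ± 0.197 (adjusted p = 0.00299). Il6 was at least 1.64-fold higher (adjusted p = 4.13e-05), with no control AOM array above background, and did not pass with median centring. The value of Tnf fell to 0.66 when an array was left out and to 0.49 in another scaling. On SJW 2 rose (20%, against 9.18% of all genes), Il1b by 1.02 ± 0.353 (adjusted p = 0.0452) and Csf1 by 0.88 ± 0.197 (adjusted p = 0.00449). The call for Il1b on SJW was lost without any 1 of SJW AOM replicates 1 and 2 and SJW tumour replicates 2 and 3.

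NF-kB subunits and targets were counted because of the motif above. Of 15 tested, 1 rose and 6 fell on the control diet, with a median of -0.27. On SJW 0 rose and 6 fell, with a median of -0.26. The falling genes were 40% of the list on each diet, against 19.3% of all genes on the control diet and 15.4% on SJW. The one that rose was Icam1, an adhesion molecule to which neutrophils bind, by 1.29 ± 0.217 (adjusted p = 0.00043), and on SJW it differed by 0.53 ± 0.217 (adjusted p = 0.0879), a value that passed in each of the 5 other scalings, where it ran up to 1.04. Birc3, an inhibitor of cell death, fell by 1.55 ± 0.183 (adjusted p = 2.02e-05) and by 1.61 ± 0.183 (adjusted p = 2.13e-05). Tnip1 and Tnfaip3, which restrain the pathway, fell by 0.97 ± 0.155 (adjusted p = 0.000269) and by 0.77 ± 0.175 (adjusted p = 0.00371) on the control diet. On SJW they fell by 0.95 ± 0.155 (adjusted p = 0.000418) and by 0.62 ± 0.175 (adjusted p = 0.0171), and Nfkbia, the inhibitor that holds NF-kB in the cytoplasm, fell by 0.50 ± 0.145 (adjusted p = 0.0204). With median centring 1 gene rose and 2 fell on the control diet, and the median turned to 0.12. On SJW 1 rose and 1 fell, with a median of 0.03. Tnfaip3 passed on neither diet with median centring, nor did Tnip1 and Nfkbia on SJW. Nfkbia on SJW was also lost with the scanner's log ratio and without SJW AOM replicate 3, SJW tumour replicate 2 or SJW tumour replicate 3, and Tnfaip3 without SJW AOM replicate 3 or SJW tumour replicate 1.

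Among 30 other chemokines 9 rose and 5 fell on the control diet (30% and 16.7%, against 12.7% and 19.3% of all genes), and 5 rose and 5 fell on SJW (16.7% each way, against 9.18% and 15.4%). Cxcl9, a ligand for activated T cells that interferon induces, rose by 2.13 ± 0.343 on the control diet (adjusted p = 0.000288), and Ccl2, which attracts monocytes, rose by 0.88 ± 0.156 (adjusted p = 0.000625). Ccl6 fell by 2.78 ± 0.359 (adjusted p = 4.73e-05) and Ccl28, an epithelial chemokine for plasma cells, by 1.08 ± 0.21 (adjusted p = 0.00121). On SJW Ccl6 fell by 2.95 ± 0.359 (adjusted p = 3.87e-05), Ccl2 rose by 0.74 ± 0.156 (adjusted p = 0.00279) Cxcl14 rose by 1.86 ± 0.363 (adjusted p = 0.00167) and Ccl28 fell by 0.96 ± 0.21 (adjusted p = 0.00381), the last not with median centring. Of 19 chemokine receptors 3 rose and 3 fell on the control diet (15.8% each way, near the shares of all genes). Cx3cr1, a receptor of monocytes and macrophages, rose by 0.80 ± 0.189 (adjusted p = 0.00486) and the scavenging receptor Ackr3 by 0.93 ± 0.249 (adjusted p = 0.01), while Cxcr5, a receptor of B cells, fell by 1.73 ± 0.394 (adjusted p = 0.00373). On SJW Ackr3 rose by 0.80 ± 0.249 (adjusted p = 0.0289) and Ccr6 fell as given above. The call for Ackr3 on SJW held in 1 of 6 fits that each left out an array, that without SJW AOM replicate 3, and its value ran up to 1.70 in other scalings. In the other comparisons no gene of the lists of neutrophil genes, cytokines, NF-kB genes, chemokines, chemokine receptors or S100 genes passed. Some cell markers did, with AOM against saline. On SJW 3 of 9 macrophage and monocyte genes and 2 of 6 fibroblast genes rose, and 2 of 9 colon genes fell. On the control diet 1 of 9 colon genes fell and 1 of 5 genes of the epithelium over lymphoid follicles rose.

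The members lie in 2 gene clusters and elsewhere, and the other genes of the clusters were tested in the same fit. Cxcl5, Cxcl3, Cxcl1 and Cxcl2 lie on chromosome 5 in that order, with Ppbp, Pf4 and Cxcl15 between them and Rassf6 and Mthfd2l at the ends. Of these 5 neighbours, 2 rose and 1 fell on the control diet and 1 rose on SJW. The shares of all genes were 12.7% higher and 19.3% lower on the control diet, and 9.18% and 15.4% on SJW. Pf4, a platelet chemokine, rose by 0.89 ± 0.302 (adjusted p = 0.0349, lost without control AOM replicate 1 or 3 or control tumour replicate 2 or 3) and by 1.21 ± 0.302 (adjusted p = 0.00865). Mthfd2l rose by 0.62 ± 0.125 (adjusted p = 0.00162) on the control diet, where Rassf6 fell by 0.86 ± 0.239 (adjusted p = 0.0129). Neither passed with median centring, and Rassf6 did not without control AOM replicate 2 or control tumour replicate 1. Cxcl15, which lies between Cxcl3 and Cxcl1, differed by 0.21 ± 0.368 and -0.19 ± 0.368 and did not pass.

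On chromosome 3 S100a8 and S100a9 lie side by side at the end of a run of S100 genes, most of which went the other way. Of 8 tested neighbours from S100a1 to S100a6, 6 fell and 1 rose on the control diet, and 4 fell and 1 rose on SJW. S100a13 fell by 2.02 ± 0.157 (adjusted p = 6.31e-07) and by 1.56 ± 0.157 (adjusted p = 8.23e-06). S100a1 fell by 1.60 ± 0.19 (adjusted p = 2.22e-05) and S100a6, a calcium-binding protein of many epithelia, by 1.24 ± 0.243 (adjusted p = 0.00132) on the control diet. S100a10, outside this run, fell by 1.21 ± 0.161 (adjusted p = 5.88e-05). On SJW S100a10 fell by 1.02 ± 0.161 (adjusted p = 0.000355) and S100a1 by 1.07 ± 0.19 (adjusted p = 0.000847), and neither passed there with median centring. S100a3 rose by 0.49 ± 0.13 on the control diet (adjusted p = 0.00939) and S100a4 fell by 0.73 ± 0.228 on SJW (adjusted p = 0.0298), but the direction of each turned under another scaling. Over 13 other S100 genes 2 rose and 7 fell on the control diet (15.4% and 53.8%), and 1 rose and 5 fell on SJW (7.69% and 38.5%). Among all genes 12.7% rose and 19.3% fell on the control diet, and 9.18% rose and 15.4% fell on SJW.

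**Figure D5:**
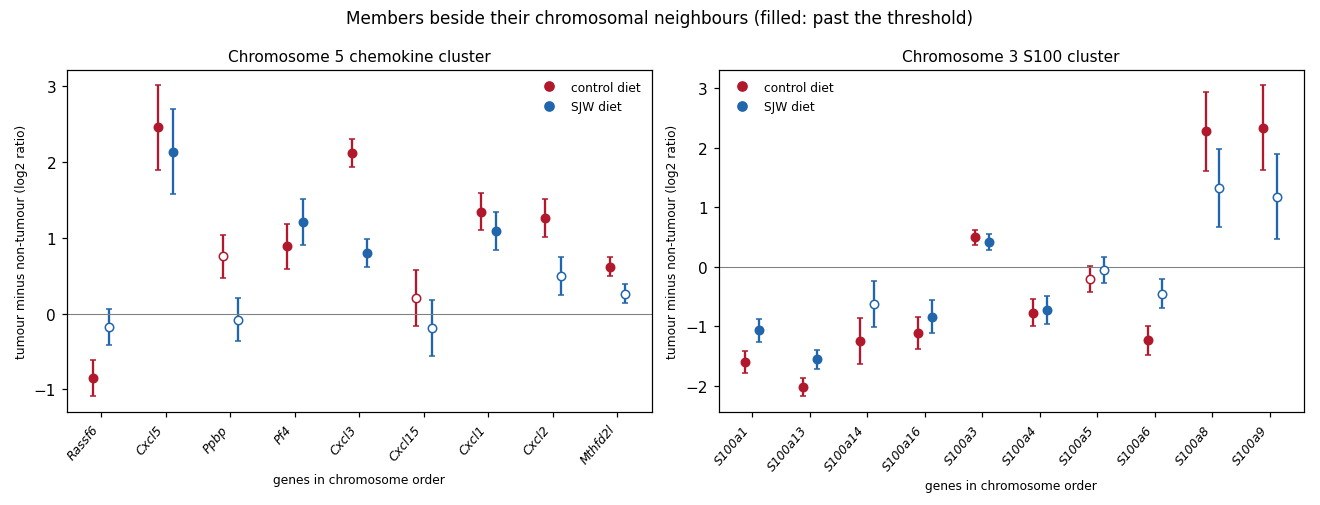
Tumour minus non-tumour differences in log2 ratio with standard errors for the genes of the chromosome 5 chemokine cluster and the chromosome 3 S100 cluster, in chromosome order, on each diet. Filled points passed the threshold. S100a8 and S100a9 lie above 0 at the end of a run in which 6 of 8 tested neighbours fell on the control diet, against 19.3% of all genes.

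The genes whose log2 ratios were most like those of 3 of the members over the 18 arrays were ranked by Pearson correlation, which the 6 groups and the brightness of the tumour arrays share in. For Cxcl2 they were Clec4d (0.957, and 0.933 after each group's mean was removed), Sirpb1c (0.953 and 0.819), Cstdc4 (0.943 and 0.8), Il1b (0.938 and 0.803) and Clec4e (0.932 and 0.766). For S100a8 they were Lcn2 (0.957 and 0.893), Clec4e (0.945 and 0.804), Lrg1 (0.917 and 0.834), Il1b (0.917 and 0.9) and Icam1 (0.916 and 0.792). For Cxcl5 they were Prpf19 (0.937 and 0.741), Tnfrsf11b (0.936 and 0.547), Ier3 (0.931 and 0.657), Mrto4 (0.93 and 0.508) and Psmb7 (0.924 and 0.475). The genes nearest to Cxcl2 and S100a8 kept more of their correlation within groups than those nearest to Cxcl5. Among the members themselves Cxcl2 and Cxcl3 had 0.948 and 0.869, and Cxcl1 and S100a8 had 0.735 and -0.0462. Cxcl2 and Cxcl3 were not well above background on any non-tumour array, and Clec4d was so on 10 of the 18 arrays and Clec4e on 7. The correlations with Cxcl2 thus rest mainly on the tumour arrays, also after group means were removed.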

How the data were processed

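Each of 18 samples was hybridised to its own Agilent array, 45018 spots each, in 2 colours. The file headers name Feature Extraction 10.10.1.1, the protocol GE2_1010_Sep10 and mouse build mm9. The deposited intensity values used here are medians of spot and local background pixels. A deposited log10 ratio of red to green was used as an alternative, and per the file headers the scanner software had subtracted background and normalized dyes for it. A further table with 35491 deposited log2 values per array had slopes of 0.9998 to 1.003 and r of 0.9955 or more against that ratio, which settles its scale, its direction and that it was not centred. The medians of its columns, in replicate order, were 0.157, 0.125, 0.342 for control tumours, 0.182, 0.125, 0.156 for SJW tumours, 0.103, 0.206, 0.0529 for control AOM, 0.11, 0.129, -0.031 for SJW AOM, 0.16, 0.207, 0.152 for control saline and 0.228, 0.148, 0.148 for SJW saline.

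Background was corrected with normexp (offset 50) and ratios were normalized within arrays by loess. The 1639 control spots were dropped, as were spots the scanner had marked as population outliers (0.27% to 0.505% per array), and repeated spots of a probe were averaged. Of 41174 probes 34081 passed the filter, 27053 of the 41174 had a symbol with RefSeq on assembly GRCm38.p6 (also the source of gene order and promoters), and the brightest kept probe stood for a gene. The 26073 genes were fitted with limma 3.58.1 in R 4.3.3 in 1 model of all 18 arrays (12 residual degrees of freedom), with Benjamini-Hochberg adjustment within each of 9 comparisons and a threshold of 0.05. The fit was tested on simulated data. The number of arrays limits the precision, and p-values measure the spread between these samples.

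The members and gene lists were chosen with earlier results of these data known. Named list genes were, of each list, up to 4 with the smallest p that passed in each tumour comparison, a few of which are not reported here. Clec4d, Csf3r, Retnlg and the neighbours of the members were added after their values were seen. Arrays with the same replicate number in the labels deviated together in every pair of SJW against control after saline (r of 0.169, 0.411 and 0.364). For AOM against saline on SJW the r were 0.3, 0.115 and 0.025, and each other comparison had a pair with a negative r. Same-numbered arrays share slides in all comparisons of non-tumour groups. The other settings were another background correction, centring, source, filter, probe choice, block, covariate, sample set, variance trend and threshold, and leaving out each array. The second Cxcr2 probe was added as a setting after the data were seen.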

Additional observations from a re-analysis of the deposited data

How the results depend on the processing

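No member that passed changed direction under the other settings, 21 for each tumour comparison, 22 for each other comparison of groups and 28 for each difference between diets, less 1 for Cxcl2 and Cxcl3. On the control diet 4 to 7 of the 8 genes passed, and on SJW 2 to 4. With AOM against saline on the control diet, 1 gene passed without background correction, and 0 to 1 when each array was left out, the 1 without control AOM replicate 1. Between the tumours of the diets 1 passed with an intensity trend, and 0 to 1 when each array was left out, the 1 without control tumour replicate 2 or without SJW tumour replicate 3. Of the other neutrophil genes 8 rose on the control diet and 3 on SJW at a threshold of 0.01, and 8 to 15 and 3 to 7 when each array was left out. The cause was not tested. With the replicate block 6 genes passed on the control diet and 3 on SJW, as without it, and it changed no other count of the 8 genes. Slide as a fixed block could not be fitted for tumour against non-tumour tissue. The stricter filter on dim probes left out Cxcl2 and Cxcl3. Of 1646 values of the 8 genes under these settings 1515 moved by less than the spread between replicates, 131 moved by more and 0 turned a passed direction. A turn could be counted only where the main fit had passed. Differences that had not passed did change sign, as that of Ccl20 in SJW tumours, which ran from -1.55 to 0.207. A move below the spread could be large: that of S100a9 in SJW tumours was so counted in all 21 settings and ran from 0.233 to 1.88. What limits Cxcl2, Cxcl3 and Ccl20 is signal near background in one or both channels, and red signal near background limits Cxcl5 and S100a8 in part of the non-tumour tissue.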
